A study of Mus musculus with 3 samples.

Results

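The 10 serotonin (5-HT) receptor genes Htr1b, Htr1d, Htr1f, Htr2a, Htr2b, Htr3a, Htr3b, Htr4, Htr5a and Htr7 were examined in nuclei of mouse dorsal root ganglia (DRG), where the cell bodies of sensory neurons lie beside the spinal cord. The members were taken by gene symbol, and all 10 were among the 32227 genes of the count matrices. The study is about the endothelin B receptor in axon regeneration, and this experiment compared DRG of adult and aged mice. The lumbar L3 to L5 ganglia of C57BL/6 mice without a further allele or agent were used. The adult group was 1 library of mice aged 3 months and the aged group 2 libraries of mice aged 21 months, all labelled male. The ages are those of the sample labels, and the general description of the series gives others. The study calls the libraries biological replicates, the labels do not say how many mice each holds, and p-values measure only the spread between these libraries.

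Before the receptors are described, 4 facts about the libraries matter. Barcodes above 1000 detected genes count as nuclei, 11518 in the adult library, 5130 in the first aged library and 2611 in the second, and their median depth was 3269, 4317.5 and 4900 unique molecular identifiers (UMIs, each standing for 1 captured transcript). Each of the aged libraries shared 1 nucleus barcode with the adult library and none with the other. Among nuclei with more than 2000 genes, 67.3%, 61.7% and 69.2% held Xist and no Y-linked transcript, 2.75%, 4.58% and 2.66% the reverse, and 22.7%, 14.6% and 13.2% both. Xist, which is made from the inactive X of female cells, was thus in most nuclei, against the male label of all 3 libraries. The study's methods name both female aged mice and DRG of both sexes. RNA outside nuclei was read from barcodes with 100 UMIs or fewer and is called free RNA. Levels are given as CPM, the UMIs of a gene per 1000000 UMIs in the summed nuclei of 1 class in 1 library, in the order adult, first aged, second aged. They are levels within the nuclei of a class, since a 3' count is not compared between genes.

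Serotonin receptors fall into families by the signal they pass on. The 5-HT1 and 5-HT5 receptors couple to Gi/o proteins, which lower cyclic AMP. The 5-HT2 receptors couple to Gq/11 and phospholipase C, the 5-HT4, 5-HT6 and 5-HT7 receptors couple to Gs and raise cyclic AMP, and the 5-HT3 receptors are cation channels of 5 subunits. In the periphery, serotonin from platelets, mast cells and the gut acts on sensory nerve endings in pain, itch and visceral reflexes, and agonists of the 5-HT1B, 5-HT1D and 5-HT1F receptors are used against migraine.

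Of the 19259 nuclei, 9028 were neuron-like by their markers, 4858, 2737 and 1433 per library. They include 1278 nuclei of clusters that were given no subtype, mostly for their glial markers. Over the 3 libraries all receptors except Htr2b lay mainly in these nuclei, which held 89.9% (Htr2a) to 98.8% (Htr4) of the UMIs of those 9 genes in kept nuclei. The share over all genes was not taken, so these shares are descriptions. In the list of serotonin pathway genes read further on, it ran from 19.3% (Plcb2) to 93.6% (Slc18a1), with 79.7% for Gnas. For Htr2b the neuron-like share was 60.6% of 33 UMIs in the adult, 12.9% of 155 in the first aged and 6.12% of 98 in the second aged library. The deepest members were Htr1f with 30846 UMIs in kept nuclei and Htr4 with 22903, and the sparsest were Htr2b with 286 and Htr5a with 278. The other members had between 1471 UMIs (Htr3b) and 5627 (Htr3a).

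In neuron-like nuclei the Gi/o-coupled receptors stood at 16.4, 25.6 and 23.0 CPM for Htr1b, 26.2, 24.1 and 27.1 CPM for Htr1d, 230.1, 194 and 203 CPM for Htr1f and 1.53, 2.13 and 2.14 CPM for Htr5a. The Gq/11-coupled Htr2a stood at 16.4, 23.1 and 24.8 CPM and Htr2b at 0.292, 0.474 and 0.195 CPM. The channel subunit Htr3a stood at 28.0, 54.4 and 31.1 CPM and Htr3b at 9.17, 10.1 and 10.3 CPM. Among the Gs-coupled receptors Htr4 stood at 136, 164 and 209 CPM and Htr7 at 19.4, 20.8 and 21.5 CPM. For 7 of the 10 genes every neuron-like value lay above every value of the 7 other classes tested. The same count was not made over all genes, so it is a description. The exceptions were Htr2a, which was higher in endothelial-like nuclei and in aged non-myelinating Schwann cell-like nuclei overlapped the adult neuron-like value, Htr2b, which was higher in myeloid-like nuclei of the aged libraries and, from 1 to 5 UMIs a library, in endothelial-like (3.85, 5.28 and 3.18 CPM) and fibroblast-like nuclei (1.34, 2.90 and 2.02 CPM), with further overlap from 1 to 3 UMIs in myelinating Schwann cell-like and SGC-like nuclei, and Htr5a, for which 2 UMIs in myelinating Schwann cell-like nuclei of the second aged library gave 2.04 CPM.

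**Figure D1:**
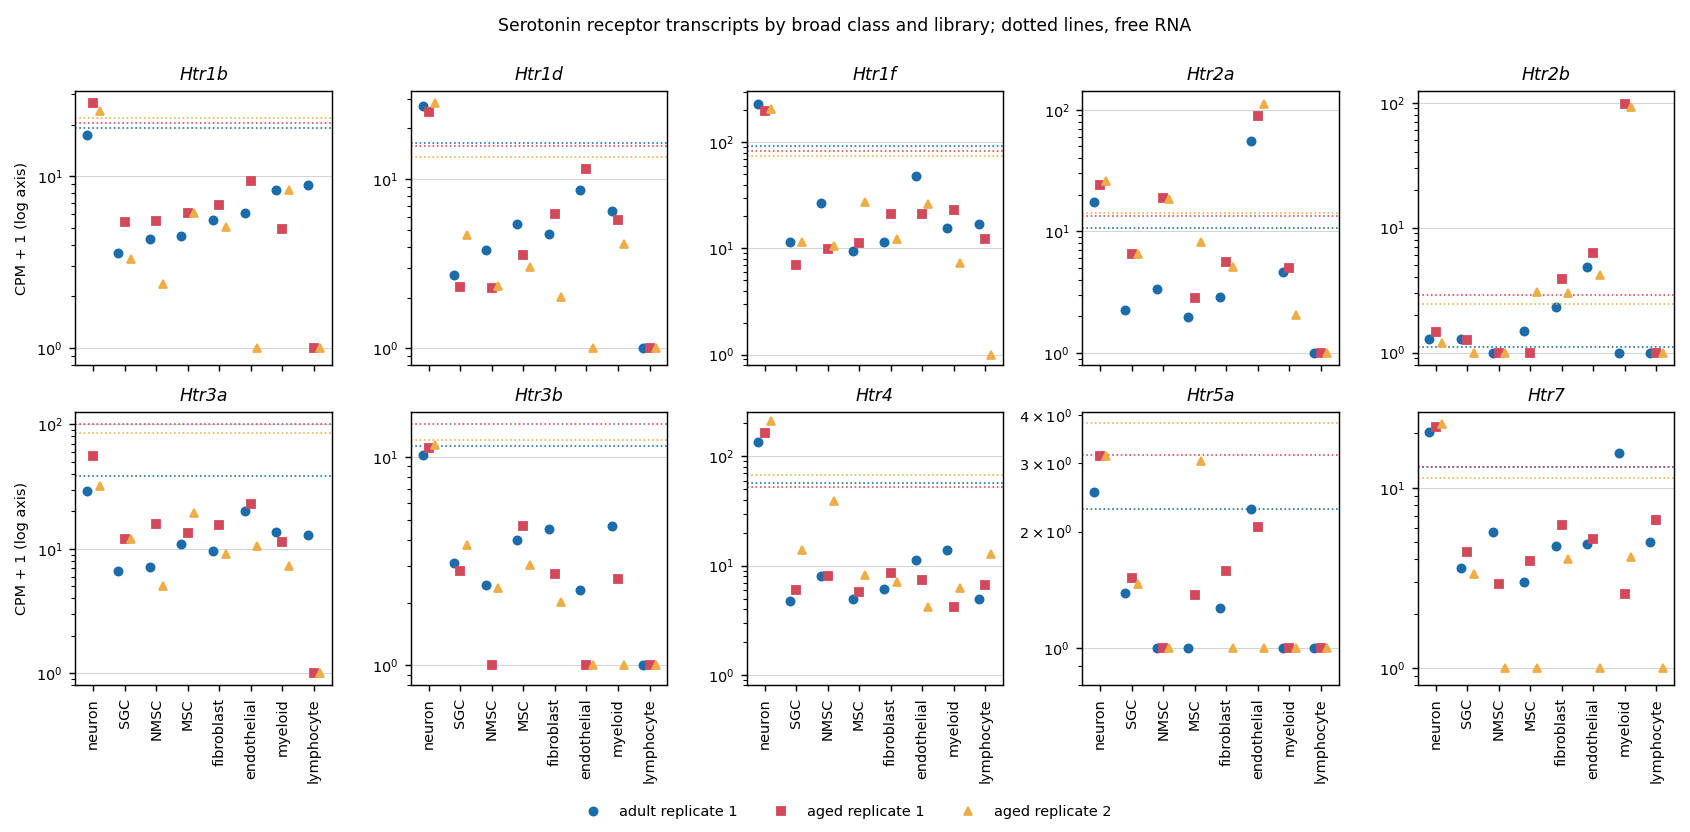
Level of each receptor gene (CPM + 1, log axis) in the summed nuclei of 8 broad classes, 1 point per library, with dotted lines for the level of the gene in free RNA of each library. The neuron-like points are highest for most genes, Htr2a is highest in the endothelial-like class (54.0 to 111 CPM), and Htr2b has 0 UMIs in the adult myeloid-like nuclei and stands at 97.3 and 90.7 CPM in the aged ones.

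The levels of the neuron-like sums were tested against the mean of the other classes by the quasi-likelihood test of edgeR with library as a covariate, and p-values were adjusted over all genes (Benjamini-Hochberg). The test ran on 8 members, since Htr2b and Htr5a were too sparse for the filter on low sums. All 8 were higher in neuron-like nuclei, where 33.1% of all genes tested were higher and 63% were called in either direction. Their median log2 difference was 3.45 beside 0.0126 over all genes tested. Htr7 passed the filter only with its neuron-like sums, the class where it was high, and the other members were not checked for this. The count and the median are therefore descriptions. The difference was 4.76 ± 0.18 (SE) for Htr4, 4.16 ± 0.30 for Htr1d, 4.01 ± 0.21 for Htr1f and 3.79 ± 0.39 for Htr3b, and between 2.06 ± 0.19 (Htr3a) and 3.10 ± 0.37 (Htr2a) for the other 4. None of these 8 calls was lost in an alternative that tested the gene, the sums without the 1278 nuclei included. Their sizes moved, from 1.75 (above 2000 genes per nucleus) to 3.31 for Htr2a, from 2.91 to 5.52 for Htr1d, from 1.53 to 3.26 for Htr3a and from 2.92 to 4.70 for Htr3b.

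Free RNA can give UMIs in nuclei that do not express a gene, and the low non-neuronal values were read against it. In satellite glial cell (SGC)-like nuclei, the glia that wrap the neuron body, 0.821%, 2.54% and 1.70% of nuclei held an Htr1b UMI and 3.38%, 4.84% and 8.47% an Htr1f UMI, at median depths of 3208, 7348 and 8132 UMIs. The neuron-like shares at median depths of 6356, 4949 and 6402 UMIs were 13.5%, 16.04% and 17.9% for Htr1b and 23.7%, 20.9% and 21.8% for Htr1f. The SGC-like levels of Htr1f, 10.6, 6.00 and 10.6 CPM, lay below the free RNA level of 91.7, 82.7 and 73.9 CPM and are not read as expression. Htr3a stood in free RNA at 37.6, 99.2 and 85.0 CPM, above its own neuron-like level in every library. The same held for Htr3b, at 10.3 to 13.4 CPM, Htr1b in the adult library (18.2 CPM), and the sparse Htr2b and Htr5a in both aged libraries.

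The Gq/11-coupled Htr2a, the receptor through which serotonin acts on platelets and vascular muscle, was the 1 member called higher in a class other than neurons, at 54.0, 88.7 and 111 CPM in endothelial-like nuclei. Free RNA held 9.67, 12.5 and 13.2 CPM of it, and 14.0%, 21.4% and 19.7% of endothelial-like nuclei had a UMI against 0.427%, 3.00% and 2.97% of SGC-like nuclei. The endothelial-like values did not overlap those of any other class. Endothelial-like nuclei were higher than the mean of the other classes by a log2 difference of 5.02 ± 0.36 (adjusted p = 3.53e-10 by edgeR), in a comparison where 13.5% of all genes were higher, and by 3.17 above 2000 genes per nucleus. Over the 7 classes other than neurons, 20.6% (endothelial-like), 21.7% (non-myelinating Schwann cell-like), 23.8% (lymphocyte-like), 30.9% (fibroblast-like), 33.7% (myelinating Schwann cell-like), 39.4% (SGC-like) and 43.8% (myeloid-like) of all genes were called in either direction. Htr1f in SGC-like nuclei (-1.16 ± 0.35, adjusted p = 0.0102, with 18.6% of genes lower) and Htr4 in myelinating Schwann cell-like nuclei (-1.09 ± 0.41, adjusted p = 0.045, with 14.6% of genes lower) were called lower. These calls were made among values below free RNA, and the first was lost without the first aged library (-0.89) and when nuclei were assigned one by one from markers (-0.41, adjusted p = 0.405 by edgeR). The second was lost without any 1 of the 3 libraries (-1.01 to -1.21), with that assignment (-0.73) and above 2000 genes per nucleus (-0.93).

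Neuron-like nuclei were clustered again without the receptor genes and the pathway genes, and 7750 of them fell into 8 subtypes named by markers. These were neurofilament-rich large-fibre neurons (NF, 2360 nuclei), non-peptidergic neurons with Mrgprd (NP Mrgprd), Mrgpra3 (NP Mrgpra3) or Sst and Nppb (NP Sst, the itch neurons, 156 nuclei), peptidergic C-fibre (PEP C, 1536 nuclei) and A-fibre neurons (PEP A, 649 nuclei), tyrosine hydroxylase C low-threshold mechanoreceptors (TH), and Trpm8 cold neurons. Each subtype was tested against the mean of the other 7 in sums per library, and 9 members passed the filter. Of 72 tests, 23 were called higher and 24 lower.

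Members called higher numbered 4 of 9 in NF (27.1% of all genes tested there), 6 in PEP A (25.8%), 3 in PEP C (27%), 2 in NP Mrgprd (19.9%), 2 in NP Mrgpra3 (13.8%), 2 in NP Sst (12.3%), 2 in TH (19.4%) and 2 in Trpm8 neurons (14%). Members called lower numbered 1 of 9 in NF (21% of all genes), 1 in PEP A (21.9%), 3 in PEP C (18.7%), 5 in NP Mrgprd (16.7%), 2 in NP Mrgpra3 (11.1%), 4 in NP Sst (13.2%), 4 in TH (16.6%) and 4 in Trpm8 neurons (12.4%). With either direction counted, 48.1% of all genes were called in NF, 47.7% in PEP A, 45.8% in PEP C and 36.6% in NP Mrgprd, 35.9% in TH, 26.3% in Trpm8 neurons, 25.5% in NP Sst and 24.9% in NP Mrgpra3. The levels in each subtype follow by receptor family.

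**Figure D2:**
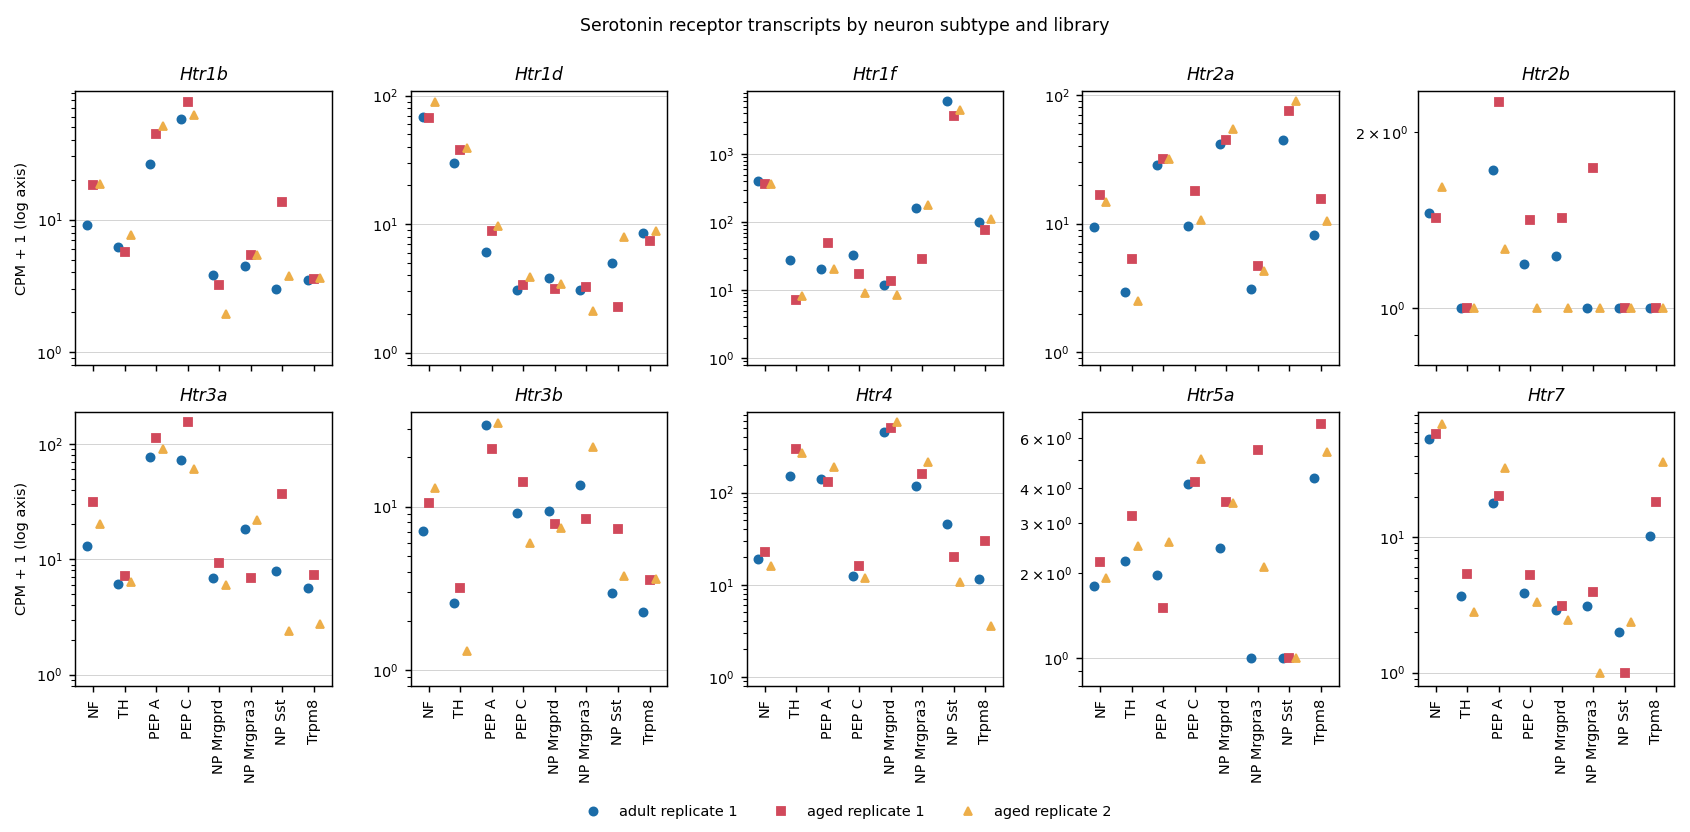
Level of each receptor gene (CPM + 1, log axis) in the summed nuclei of 8 neuron subtypes, 1 point per library. Htr1f peaks in NP Sst (3591 to 6015 CPM), Htr4 in NP Mrgprd (455 to 579 CPM), Htr1d and Htr7 in NF, Htr1b in PEP C, and Htr3a in both PEP C and PEP A.

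Htr1b, which encodes the 5-HT1B receptor that restrains transmitter release at nerve endings, was highest in the peptidergic subtypes. It stood at 56.6, 76.6 and 60.3 CPM in PEP C and at 25.5, 43.5 and 49.9 CPM in PEP A, without overlap between them or with the other subtypes. NF stood at 8.05, 17.3 and 17.8 CPM, and the other 5 subtypes between 0.932 and 12.7 CPM. NF and these 5 lay below the free RNA level of Htr1b, 18.2, 19.5 and 20.8 CPM, in every library. The log2 difference from the other subtypes was 3.27 ± 0.17 in PEP C, 2.60 ± 0.19 in PEP A and 0.81 ± 0.20 in NF, and the call in NF was lost without nuclei of low Malat1 share (0.34, adjusted p = 0.204), which are described further on. Htr1b was lower in NP Mrgprd (-2.15 ± 0.29, lost when nuclei were assigned one by one from markers, at -1.49) and Trpm8 neurons (-1.98 ± 0.45, lost without the first aged library at -1.74). The gene spans 5.54 kb (chromosome 9, 81628291 to 81633828, minus strand, GRCm38), and the antisense gene D430036J16Rik overlaps it, at 30.8, 44.8 and 46.6 CPM in PEP C. Whether the counting used strand is not given in the sources used here, so reads of such a pair cannot be told apart with certainty.

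Htr1d, which encodes the 5-HT1D receptor, a presynaptic receptor of the trigeminovascular system, was highest in the large-fibre neurons. It stood at 67.6, 66.6 and 88.9 CPM in NF, followed without overlap by 29.0, 36.7 and 38.1 CPM in TH. Trpm8 (6.37 to 7.81 CPM) and PEP A neurons (5.07 to 8.67 CPM) overlapped each other, and the remaining 4 subtypes stood between 1.10 and 6.89 CPM. Free RNA held 12.6 to 15.4 CPM of Htr1d, below NF and TH and above the other subtypes. The log2 differences were 3.89 ± 0.11 in NF and 2.66 ± 0.13 in TH. PEP C, a C-fibre subtype as TH is, held 2.09, 2.36 and 2.89 CPM and was called lower (-1.84 ± 0.20). The call of lower Htr1d in NP Sst (-1.04 ± 0.36, adjusted p = 0.0498) was lost in 6 of the other settings and without the adult or the first aged library, where the smallest value was -0.66.

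The Htr1d gene lies on chromosome 4, 136423524 to 136444398, plus strand (GRCm38, GENCODE M21), and spans 20.9 kb. The 250 bases before its first RefSeq start (chr4:136423274-136423523, plus strand, GRCm38.p6) are shown because its levels in NF and TH overlapped those of no other subtype. Capitals mark a GC box (GGGCGG) 67 bases and an E box (CAGNTG) 50 bases before the start:
Htr1d: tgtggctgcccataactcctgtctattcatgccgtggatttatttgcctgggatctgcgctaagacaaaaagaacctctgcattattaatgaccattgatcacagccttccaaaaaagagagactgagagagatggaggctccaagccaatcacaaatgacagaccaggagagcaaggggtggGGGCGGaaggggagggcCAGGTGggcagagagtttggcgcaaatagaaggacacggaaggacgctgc
The motifs were searched on both strands and did not overlap, and a match is only a description of these letters. Of 32851 promoters of this length in the RefSeq table, 32.7% hold GGGCGG and 44.8% hold CAGNTG. Not found in this window were the TATA box letters TATAAA (in 12.4% of promoters), the Runx core TGTGGT (in 14.1%), the cyclic AMP response element core TGACG (in 17.8%) and the Pou4f motif TAATNANT (in 9.20%).

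Htr1f, which encodes the 5-HT1F receptor, had the largest log2 difference of all 72 member tests. The NP Sst neurons held 6015, 3591 and 4442 CPM, a mean of 4683 ± 1230 CPM (SD, n = 3), and 97.0%, 82.5% and 93.9% of their nuclei had a UMI. NF followed at 397, 358 and 364 CPM, and Trpm8 neurons stood at 99.2, 77.1 and 110.3 CPM. None of these 3 groups overlapped the next. The NP Mrgpra3 neurons varied from 28.1 CPM in the first aged library to 161 and 179 CPM in the others and overlapped Trpm8 neurons. PEP A, PEP C, TH and NP Mrgprd ranged from 6.18 to 48.5 CPM, each overlapping the next and all below the free RNA level of 73.9 to 91.7 CPM. In the first aged library NP Mrgpra3 and Trpm8 neurons lay below it too.

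The log2 difference of Htr1f was 6.60 ± 0.23 in NP Sst (adjusted p = 2.45e-16) and 2.59 ± 0.25 in NF. Thinned to 1000 UMIs per nucleus, 87.2%, 61.5% and 79.9% of NP Sst nuclei still had an Htr1f UMI against 19.1%, 14.6% and 15.5% of NF nuclei. Htr1f was among the 10 genes with the largest fold in the NP Sst cluster, although it was left out of the clustering. Lower levels were called in NP Mrgprd (-3.25 ± 0.41), TH (-2.78 ± 0.42), PEP C (-2.48 ± 0.39) and PEP A (-1.53 ± 0.38, lost without the adult library at -0.98). The gene spans 181 kb on chromosome 16, 64924729 to 65105854, minus strand.

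Htr5a, which encodes a Gi/o-coupled receptor known mainly from the brain, was close to the limit of detection. It stood at 3.33, 5.73 and 4.34 CPM in Trpm8 neurons (8, 9 and 5 UMIs) and at 3.13, 3.19 and 4.04 CPM in PEP C (33, 23 and 21 UMIs), which overlapped. Trpm8 and PEP C neurons differed from the other subtypes by log2 values of 2.20 ± 0.52 and 1.78 ± 0.42. No p is given, since it was mainly these subtypes that brought the gene past the filter on low sums. Its calls stay in the counts given above. In NP Sst no UMI was seen in 66, 57 and 33 nuclei, where 3 UMIs per library would be 2.96, 3.80 and 4.13 CPM, so no fold is given. The lower call there was lost without any 1 library and with nuclei assigned one by one from markers.

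Among the Gq/11-coupled receptors, Htr2a was highest in non-peptidergic neurons. It stood at 43.5, 73.4 and 88.2 CPM in NP Sst and at 40.4, 43.4 and 53.3 CPM in NP Mrgprd, which overlapped, and at 27.3, 30.9 and 30.5 CPM in PEP A, which did not overlap either. The NP Mrgpra3 neurons, the other itch subtype, held 2.10, 3.69 and 3.31 CPM and TH 1.93, 4.36 and 1.499 CPM. The log2 difference was 2.54 ± 0.20 in NP Sst, 2.11 ± 0.14 in NP Mrgprd, 1.45 ± 0.16 in PEP A, -2.47 ± 0.38 in NP Mrgpra3 and -2.70 ± 0.27 in TH. These 5 calls passed the test in every alternative that could test them. Htr2a spans 68.7 kb on chromosome 14, 74640840 to 74709494, plus strand.

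Htr2b, which encodes the 5-HT2B receptor known from heart valves and macrophages, was at the limit of detection in neurons. Adult neuron-like nuclei held 20 UMIs (0.292 CPM, above 0.117 CPM in free RNA), and both aged libraries lay below their free RNA. The 8 subtypes held 0 to 9 UMIs per library, and the highest level was 1.26 CPM, in PEP A of the first aged library. It did not pass the filter on low sums in any test between classes or subtypes. Its level in myeloid-like nuclei is given with the age comparison.

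Htr3a encodes the subunit that forms 5-HT3 channels alone, and Htr3b a subunit that needs Htr3a to reach the membrane. Htr3a stood at 71.5, 152 and 59.3 CPM in PEP C and at 75.3, 111 and 89.1 CPM in PEP A. The 2 peptidergic subtypes overlapped each other and none of the others, which ranged from 1.38 to 35.4 CPM. Against the free RNA level of Htr3a (37.6, 99.2 and 85.0 CPM), PEP A lay above it in each library and PEP C in the first 2, while PEP C of the second aged library and the other 6 subtypes lay below it. On the log2 scale PEP A was higher by 2.96 ± 0.20 and PEP C by 2.72 ± 0.19. The PEP C value depended on how the nuclei were grouped, at 1.12 without nuclei of low Malat1 share and 0.43 (adjusted p = 0.182) with finer clusters, where 27.4% of the 661 low-Malat1 PEP C nuclei kept the name. Htr3a was lower in NP Mrgprd (-1.49 ± 0.28), TH (-1.67 ± 0.34) and Trpm8 neurons (-2.19 ± 0.46).

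Htr3b stood at 30.4, 21.6 and 31.3 CPM in PEP A, above the ranges of all other subtypes but NP Mrgpra3, which held 12.6, 7.39 and 22.1 CPM. NF, PEP C and NP Mrgprd overlapped one another between 5.01 and 13.2 CPM. The log2 difference was 2.60 ± 0.23 in PEP A (adjusted p = 3.48e-09). In NP Mrgpra3 it was 1.24 ± 0.38 (adjusted p = 0.0199), at a level below free RNA in the first aged library, and this call was lost without the adult library (1.202) and without the second aged library (0.81). TH held 1.57, 2.18 and 0.300 CPM and Trpm8 neurons 1.25, 2.55 and 2.60 CPM, and both were called lower (-2.38 ± 0.44 and -1.92 ± 0.56, the second lost without the adult library at -1.55).

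The subunit genes lie on the minus strand of chromosome 9, Htr3a at 48899213 to 48911099 and Htr3b at 48935008 to 48964990, with 23908 bases between them. The 250 bases before the start of Htr3b (chr9:48964991-48965240, minus strand, GRCm38.p6) are shown because the 2 neighbouring genes differ in subtype order. Capitals mark TAATNANT, found on the other strand 246 bases before the start, and TGTGGT, 14 bases before it:
Htr3b: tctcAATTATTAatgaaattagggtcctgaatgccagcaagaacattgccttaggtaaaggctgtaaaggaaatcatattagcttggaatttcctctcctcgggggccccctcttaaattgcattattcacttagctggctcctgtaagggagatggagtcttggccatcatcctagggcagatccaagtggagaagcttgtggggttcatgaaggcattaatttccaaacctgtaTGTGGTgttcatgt
Neither of the motifs of the Htr1d window, GGGCGG and CAGNTG, was in the Htr3b window, nor were TATAAA and TGACG. The RefSeq table holds no entry for Htr3a.

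Nuclei with UMIs of both subunits were counted. Nuclei of a subtype and library were split into 5 equal classes of depth, and the number with both genes was set beside the number given by the separate shares. In PEP C 101 nuclei held both where 48.0 came from the shares, in NF 78 against 38.9, and in PEP A 142 against 127. Both genes differ between nuclei of low Malat1 share and the others (described further on), so the count was also taken within each kind, which gave 65.0 from the shares in PEP C, 40.6 in NF and 128 in PEP A. Within low-Malat1 PEP C nuclei 69 held both against 51.6 from the shares, and within the other PEP C nuclei 32 against 13.4. Free RNA bears on these counts, since Htr3a lay below it in NF, and Htr3b in PEP C of every library and in NF of the adult and first aged libraries. Among SGC-like nuclei, 1.64%, 6.22% and 5.09% held an Htr3a UMI and 0.690%, 1.61% and 2.12% an Htr3b UMI. The share in NF was 10.6%, 19.4% and 15.7% for Htr3a and 6.85%, 7.75% and 11.2% for Htr3b, and the part of free RNA in the counts was not tested. For Htr1d and Htr7, which shared their highest subtype, 470 NF nuclei held both against 457.5 from the shares, so these transcripts were spread over NF nuclei nearly as their separate shares give.

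Of the Gs-coupled receptors, Htr4, known for its part in gut motility, was highest in NP Mrgprd at 455, 498 and 579 CPM. TH followed at 149.7, 298 and 268 CPM, then NP Mrgpra3 at 116, 160 and 213 CPM and PEP A at 139, 131 and 189 CPM. NP Mrgprd did not overlap the others, the next 3 overlapped one another, and NP Sst, NF, Trpm8 and PEP C lay apart from them at 2.60 to 44.4 CPM. These 4 lay below the free RNA level of 51.2 to 66.5 CPM.

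The log2 difference of Htr4 was 3.51 ± 0.17 in NP Mrgprd, 2.21 ± 0.19 in TH, 1.57 ± 0.20 in PEP A and 1.51 ± 0.23 in NP Mrgpra3, and -2.76 ± 0.28 in PEP C. The 2 Mrgpr-bearing subtypes thus shared high Htr4 and were split by Htr2a. In the first aged library 52.2% of NP Mrgprd nuclei had an Htr4 UMI, and in the others 64.9% and 60.6%. Htr4 spans 172 kb on chromosome 18.

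Htr7, which encodes the 5-HT7 receptor, was highest in NF at 51.8, 57.1 and 67.2 CPM. PEP A followed at 16.8, 19.3 and 31.5 CPM and Trpm8 neurons at 9.17, 17.2 and 34.7 CPM, overlapping each other and not NF. Free RNA held 12.0, 12.1 and 10.3 CPM of Htr7, above Trpm8 neurons in the adult library. The other 5 subtypes held 0 to 4.36 CPM. Its log2 difference was 3.96 ± 0.18 in NF, 2.43 ± 0.23 in PEP A and 1.96 ± 0.31 in Trpm8 neurons. The lower calls in NP Mrgprd (-1.63 ± 0.44) and NP Sst (-3.20 ± 0.86) were each lost without the adult library (-1.73 and -3.52) and with nuclei assigned one by one from markers (-0.58 and -2.60), and the second also without the first aged library (-2.54). Htr7 spans 98.8 kb on chromosome 19, 35958734 to 36057507, minus strand.

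Each member with at least 100 UMIs in subtyped nuclei was matched to the genes with the most similar pattern over the 24 sums of subtype and library, by Pearson's r of log2(CPM + 1) among 12311 genes with a mean of 5 CPM or more. These sums share libraries and depth, and many of the genes took part in the clustering, so the values are descriptions. For Htr3a the most similar gene was another member, Htr1b (r = 0.903), followed by Smpd3, Insrr, Ephx1 and Gng8 (0.877). For Htr1b it was Ngfr (0.947), the low-affinity neurotrophin receptor, followed by Haglr, Pcdhac2, Abcc4 and Slk (0.917). The lists of the other members did not name a second receptor.

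Htr1d was most like Gm44167 (0.949), Frmpd4, Gabrb2, D430041D05Rik and Efnb2 (0.904), and Htr7 most like Coro6 (0.937), Arhgef4, Adam23, Gm20754 and Prelid3a (0.922). Htr1f was most like Jak1 (0.905), Efemp1, Hey2, Ildr2 and Agpat5 (0.850), and Htr4 most like Tbc1d1 (0.919), Pknox2, Rassf9, Klhl5 and Dock11 (0.867). Htr3b was most like St8sia1 (0.909), Slc16a9, Cep85l, Man1a2 and Gm47644 (0.837). The values were lowest for Htr2a with Pdxdc1 (0.825), Ppp1r12c, Msrb3, Panx1 and Chsy3 (0.741), and for Htr5a with Hoxa10 (0.829), Ankrd6, B3gat2, Necab1 and Slc17a6 (0.811).

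Within subtypes the nuclei differed in Malat1, a long noncoding RNA kept in the nucleus. A neuron-like nucleus was called low-Malat1 when Malat1 took less than 50% of the median share of its library. This held for 2802 nuclei with a median of 3206 UMIs and 0.694% mitochondrial UMIs, against 9448 UMIs and 0.174% in the other 6226. The comparison was chosen after seeing the data and was run in NF, NP Mrgprd, PEP C and TH, where each library had 20 or more nuclei of either kind. It called 10 of 30 member tests higher and 9 lower in low-Malat1 nuclei, in comparisons where 71.5% (NF), 46.2% (NP Mrgprd), 63% (PEP C) and 56.3% (TH) of all genes were called. Members called higher numbered 2 in NF (35.4% of all genes), 2 in NP Mrgprd (21.8%), 5 in PEP C (28.8%) and 1 in TH (26.6%), and lower 4 in NF (36.1%), 2 in NP Mrgprd (24.4%), 1 in PEP C (34.2%) and 2 in TH (29.7%). Among the higher calls, Htr1d and Htr7 in PEP C and Htr5a in NP Mrgprd passed the filter on low sums through the low-Malat1 nuclei alone. They stay in these counts but are not read as results, and the other calls were not checked for this.

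The channel subunits moved most in PEP C. Htr3a stood at 289.9, 487 and 409 CPM in low-Malat1 nuclei and at 22.6, 35.0 and 15.6 CPM in the other PEP C nuclei, and Htr3b at 26.4, 40.7 and 29.4 against 4.07, 3.55 and 1.95 CPM. Neither gene overlapped between the kinds of nuclei. The log2 difference was 3.90 ± 0.21 for Htr3a and 3.12 ± 0.31 for Htr3b. Among the PEP C clusters, the one of 756 nuclei with 0.523% Malat1 held 284, 449.8 and 382 CPM of Htr3a, and the one of 257 nuclei with 4.11% Malat1 held 2.65, 7.61 and 9.72 CPM. In PEP A at most 7.45% of the nuclei of a library were low-Malat1, and Htr3a was at 75.3 to 111 CPM.

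Other members moved in both directions. Htr1b was higher in low-Malat1 nuclei of NF (33.3, 40.1 and 46.0 against 4.78, 10.3 and 10.99 CPM, 2.22 ± 0.20) and of PEP C (93.3, 122 and 140.3 against 48.4, 60.8 and 50.3 CPM, 1.01 ± 0.16). Htr1f was lower in NF (81.9, 61.4 and 98.4 against 438, 449 and 427 CPM, -2.52 ± 0.16). Htr4 was lower in TH (32.7, 27.0 and 30.6 against 169.9, 330.5 and 286 CPM, -3.17 ± 0.26), NP Mrgprd (-1.99 ± 0.26) and NF (-1.65 ± 0.33). The values of none of the pairs given per library overlapped. Htr7 was lower in NF (-0.83 ± 0.13). In PEP C it held 7.26, 13.4 and 8.66 against 1.86, 1.12 and 1.52 CPM (2.51 ± 0.47). That difference is a description, since Htr7 passed the filter on low sums there through the low-Malat1 nuclei alone.

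The median difference over all genes fell with gene span. In NF the median log2 difference over all genes was 0.86 for spans under 20 kb, -0.24 for 20 to 100 kb and -1.15 for over 100 kb, and in TH 0.74, -0.25 and -1.11. Htr1b (5.54 kb) and Htr3a (11.9 kb) are short, and Htr1f (181 kb) and Htr4 (172 kb) long. Htr3b (29.98 kb) was called higher in PEP C, at 3.12, where the median for spans of 20 to 100 kb was -0.27. Htr7 (98.8 kb) stood at 2.51 there and is not read as a call, for its way past the filter. With finer clusters 69.3% of the low-Malat1 PEP C nuclei had no name, against 7.43% of the other PEP C nuclei. The part of gene span, of nucleus quality and of neuron types pooled under 1 subtype name in the difference was not tested. Calls that were lost without 1 library were Htr1d in NF (-0.37 without the first aged library), Htr2a in NP Mrgprd (-0.79 without the first and -0.78 without the second aged library), Htr1b in NP Mrgprd (1.83 and 1.53 without the same libraries), Htr1f in PEP C (-0.54 without the adult and -0.47 without the first aged library) and Htr1f in TH (-0.04 without the adult library). The calls of Htr5a in NP Mrgprd and Htr1b in TH were lost without any 1 library. With DESeq2 these last 2 and those of Htr1f in PEP C (-0.72) and TH (-1.21) were lost.

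**Figure D3:**
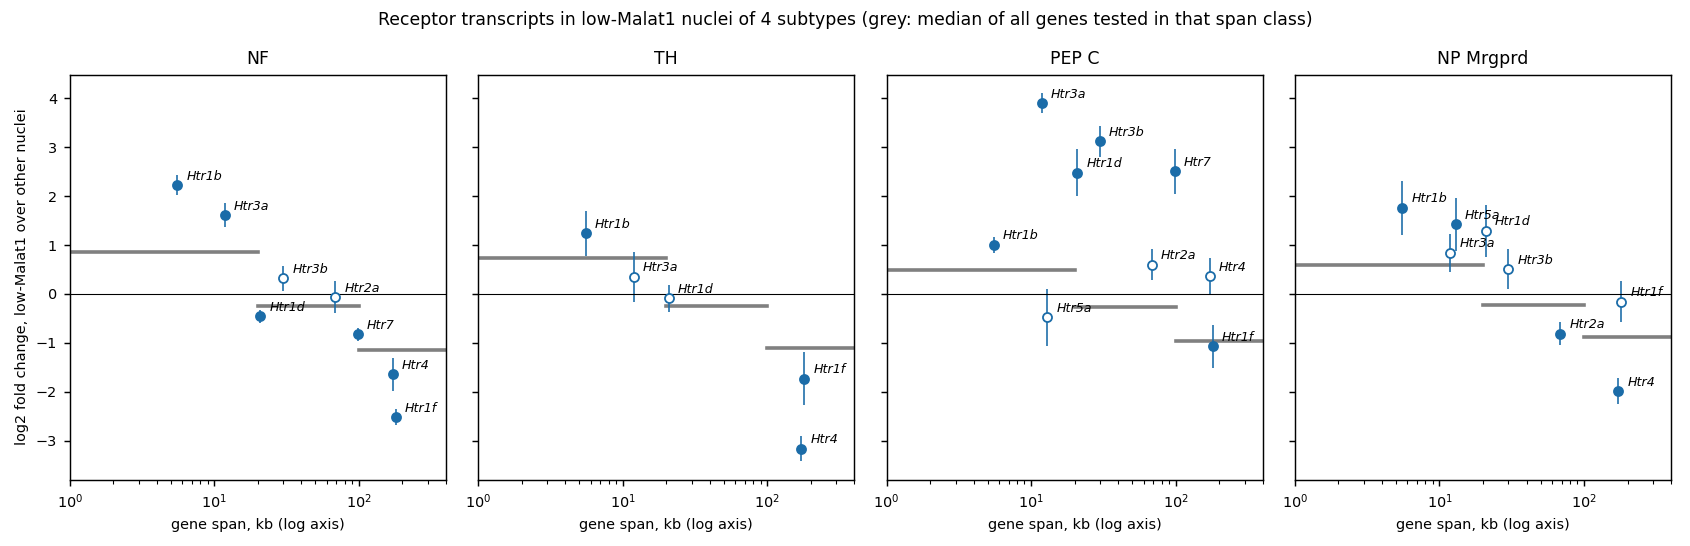
Log2 difference of each receptor between low-Malat1 and other nuclei (with SE) against the span of its gene in kb (log axis), in 4 neuron subtypes. Grey marks give the median of all genes tested in 3 classes of span, and Htr3a in PEP C (3.90) is the highest and Htr4 in TH (-3.17) the lowest of the 30 values.

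The age comparison had 1 adult and 2 aged libraries, so its spread came from the aged libraries alone, and the adult library is taken to vary as much. In neuron-like sums 0 of 10 members were called by edgeR, where 8.69% of all genes were. The smallest adjusted p was 0.223, 1 member had an unadjusted p under 0.05, and DESeq2 also called 0. That member was Htr3a, at 28.0 CPM against 54.4 and 31.1 CPM in aged libraries. Its log2 difference of 0.48 ± 0.23 was 0.04 without the first aged library and 0.80 without the second. For the other 9 members the difference lay between -0.34 ± 0.23 (Htr1f) and 0.44 ± 0.24 (Htr1b), and the same test cannot show that they did not change.

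Testing each subtype by itself gave 4 calls in 56 tests, with 12 unadjusted p-values under 0.05. In NF, where 9.24% of all genes were called and 2.61% were higher, Htr1b was higher in aged libraries (8.05 against 17.3 and 17.8 CPM, 0.90 ± 0.27, adjusted p = 0.0191), and so was Htr3a (11.9 against 30.2 and 19.1 CPM, 0.85 ± 0.25, adjusted p = 0.0152). In PEP C (1.81% called, 1.61% lower) Htr1f was lower in aged libraries (31.5 against 16.2 and 8.09 CPM, -1.48 ± 0.33, adjusted p = 0.000898). In TH (3.01% called, 2.4% lower) Htr1f was also lower (26.6 against 6.18 and 7.20 CPM, -2.12 ± 0.38, adjusted p = 4.08e-06). The adult value lay outside the aged range in all 4, which adds nothing to the calls and was not counted over all genes.

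All 4 calls were lost with DESeq2 (adjusted p = 0.395 for Htr1b, 0.439 for Htr3a, 0.446 for Htr1f in PEP C and 0.144 in TH), and 3 of them when nuclei were assigned one by one from markers (adjusted p = 0.0618, 0.05 and, for Htr1f in TH, 0.139). The value of Htr3a in NF was 0.47 without the first aged library and 1.18 without the second, and that of Htr1f in PEP C -2.07 and -1.12. Each of the 4 levels lay below the level of the same gene in free RNA in every library, and free RNA itself moved the same way with age, from 37.6 to 99.2 and 85.0 CPM for Htr3a, from 18.2 to 19.5 and 20.8 CPM for Htr1b and from 91.7 to 82.7 and 73.9 CPM for Htr1f. Its part in these differences was not tested. Low-Malat1 nuclei made up 27.4% of adult NF nuclei and 41.1% and 39.0% of aged ones, and without them the log2 differences in NF were as large (0.94 for Htr1b and 0.88 for Htr3a) and not called (adjusted p = 0.154 and 0.0926 by edgeR). The median Malat1 share of neuron-like nuclei was itself 3.18% in adult and 0.960% and 1.27% in aged libraries.

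The other members and subtypes gave no call, with backgrounds of 9.1% in NP Mrgprd, 3.21% in PEP A, 2.42% in NP Mrgpra3, 1.04% in NP Sst and 0.801% in Trpm8 neurons. Htr1f in NP Sst, Htr4 in NP Mrgprd and Htr1d and Htr7 in NF, each in the highest subtype of its own gene, were among the tests with no call. Whether the age difference of a member in 1 subtype differed from the mean of the other subtypes was tested in 72 interaction terms. None was called by edgeR or DESeq2, 4 had an unadjusted p under 0.05, and of all genes 0.0941% were called in TH, 0.0753% in NP Mrgprd, 0.0439% in PEP A, 0.0251% in NF, 0.0126% in NP Sst, 0.00628% in PEP C and 0% in NP Mrgpra3 and Trpm8 neurons. With no filter on low sums 4 were called, Htr1f in TH (-1.64 ± 0.28) and PEP A (1.44 ± 0.24) and Htr4 in NP Sst (-1.98 ± 0.40) and TH (0.88 ± 0.21). The share of all genes called without that filter was not taken, so these 4 are not read as a result about the receptors. Whether the age difference was called as differing between subtypes thus depends on that filter.

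**Figure D4:**
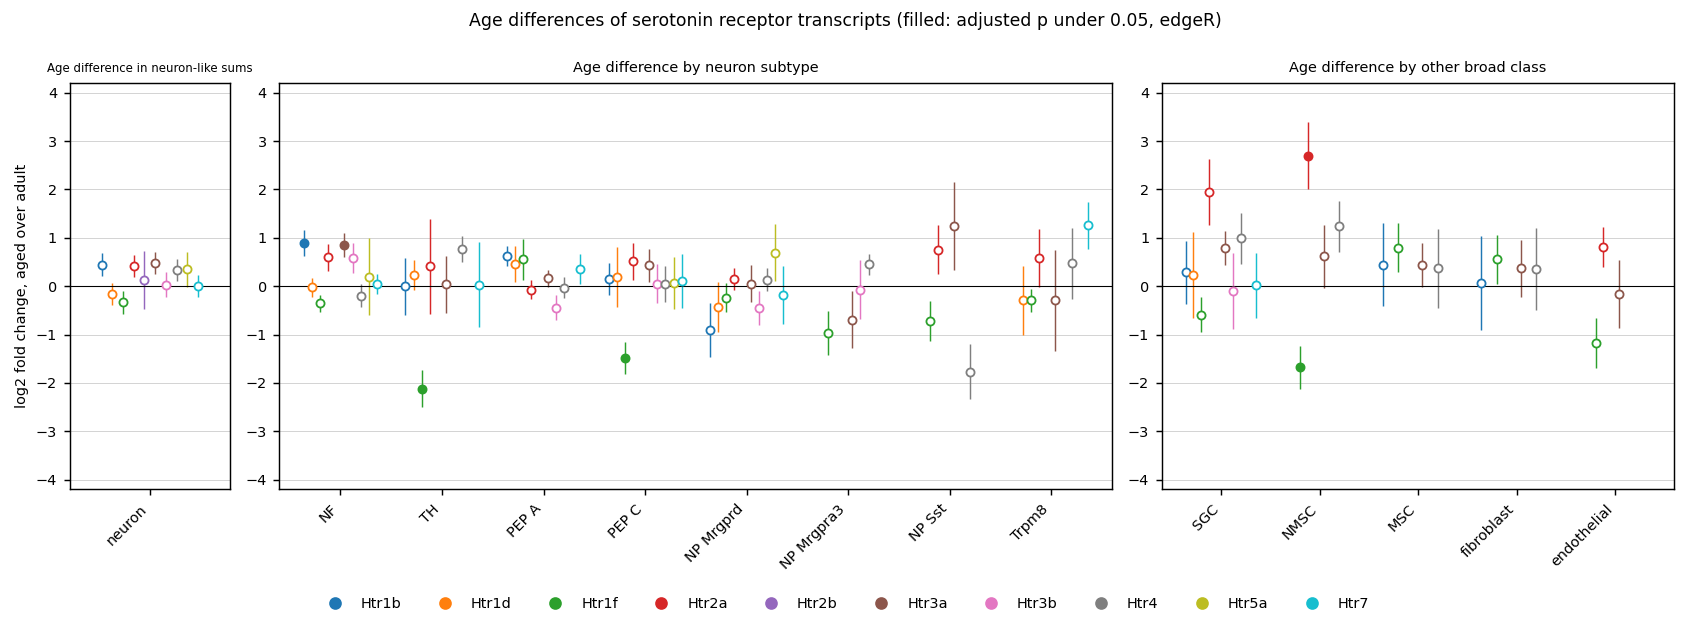
Log2 difference of each receptor between aged and adult libraries with its SE, in neuron-like sums, in neuron subtypes and in the other broad classes without the myeloid-like class. Filled points have an adjusted p under 0.05, which holds for 4 of 56 subtype tests and none of the 10 neuron-like sums. The point of Htr2a in non-myelinating Schwann cell-like nuclei is drawn filled but is not read as a call. The gene passed the filter there through the aged libraries alone.

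Outside neurons Htr2b is given first, for myeloid-like nuclei, as a description. In this class 13.9% of all genes were called with age and 6.26% were higher. The adult library held 0 Htr2b UMIs in 204 such nuclei, which allows a share of up to 1.47% of nuclei with a UMI. The aged libraries held 123 UMIs (97.3 CPM) and 87 UMIs (90.7 CPM), in 15.7% and 15.6% of 293 and 231 nuclei. Median depths were 2180, 3220 and 3538 UMIs, and thinned to 1000 UMIs per nucleus the aged shares were 5.96% and 6.58%. The aged mean of 94.0 CPM was 17.2-fold higher than 3 UMIs in the adult library (5.48 CPM). This takes UMIs as independent, while the 210 aged UMIs lay in 82 nuclei, so the fold is not a strict lower bound. No p is given, since the gene passed the filter only through the aged libraries and the adult group is 1 library at 0. The fold also depends on how nuclei are named. With finer clusters the adult class fell to 103 nuclei, while the adult lymphocyte-like class rose from 104 to 205. The limit was then 2.91% of nuclei and the fold 10.3. Above 2000 genes per nucleus 33 adult nuclei remained (7.06-fold), and with nuclei assigned one by one 30 (3.87-fold), again with 0 Htr2b UMIs. Free RNA held 0.117, 1.92 and 1.44 CPM of Htr2b. The limit of 0 counts covers counting error only.

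The myeloid-like classes of both ages held their defining markers. The summed level of 7 myeloid markers was 995, 1142 and 999 CPM, with none at 0. The 12 lymphocyte markers, none at 0, summed to 1312, 625 and 457 CPM, so they were higher in the adult class, and 7 mast cell markers to 34.7, 25.3 and 50.03 CPM, with Fcer1a at 0 in all 3. Their part in the Htr2b difference was not tested. Of 524 aged myeloid-like nuclei, the 82 with an Htr2b UMI were deeper (median 5366 UMIs against 3066). Of the 7 myeloid markers, a UMI was found more often in them for Csf1r (70.7% against 46.4%), Adgre1 (70.7% against 44.1%), C1qa (39.0% against 19.5%), Mrc1 (41.5% against 36.4%) and Aif1 (9.76% against 7.24%). It was found less often for Cx3cr1 (13.4% against 19.2%) and Cd163 (0% against 4.07%). No test was run on these shares, which also follow depth. Cd163 itself stood at 89.4, 25.3 and 19.8 CPM over the class. The gene Psmd1 overlaps Htr2b on the opposite strand (chromosome 1, 86099026 to 86111970) and stood at 104, 222 and 174 CPM in the same nuclei.

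In non-myelinating Schwann cell-like nuclei 8.74% of all genes were called with age, 4.06% higher and 4.67% lower. Htr2a stood there at 2.36 CPM in the adult library and 17.96 and 17.6 CPM in the aged ones, from 5, 28 and 13 UMIs. Free RNA held 9.67, 12.5 and 13.2 CPM, and no p is given, since this gene too passed the filter through the aged libraries alone. Htr1f was lower (25.9 against 8.98 and 9.47 CPM, -1.68 ± 0.45, adjusted p = 0.00402 by edgeR), at levels below free RNA, and this call was lost with DESeq2 (adjusted p = 0.899) and with finer clusters (-1.04). With finer clusters the adult class held 368 nuclei in place of 770, and the aged ones 267 and 130 in place of 306 and 146. The backgrounds of the classes without a member call were 10.4% in SGC-like, 8.36% in myelinating Schwann cell-like, 4.68% in fibroblast-like, 1.84% in endothelial-like and 1.31% in lymphocyte-like nuclei.

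The genes around the receptors were read from a list of 33 that covers the other serotonin receptors, the making, storage and breakdown of serotonin, and the G proteins and enzymes the receptors use. Of 25 tested, 15 were higher and 2 lower in neuron-like nuclei than in the other classes, beside the 33.1% of all genes that were higher and 63% called in either direction. The 5 with the largest difference were Plcb2, a phospholipase C (-3.06 ± 0.48), the vesicular monoamine transporter Slc18a1 (2.34 ± 0.30), the adenylyl cyclases Adcy8 (2.28 ± 0.24) and Adcy5 (1.94 ± 0.17), and the Go subunit Gnao1 (2.16 ± 0.18). Gnao1 stood at 775, 787 and 788 CPM in neuron-like nuclei, and Slc18a1 at 8.26, 7.75 and 7.86 CPM. Plcb2 stood at 0.409, 0.663 and 0.520 CPM there and at 65.7, 62.5 and 78.2 CPM in myeloid-like nuclei. The serotonin transporter Slc6a4, both tryptophan hydroxylases (Tph1 and Tph2), Slc18a2, Htr1a, Htr2c, Htr5b and Htr6 did not pass the filter of that test. Ric3, a chaperone of channel assembly, was higher in neuron-like nuclei (1.39 ± 0.19). Between subtypes the list gave 68 higher and 68 lower calls in 224 tests, in comparisons where 24.9% (NP Mrgpra3) to 48.1% (NF) of all genes were called in either direction. With age none of the 33 was called in neuron-like sums (8.69% of all genes). In single subtypes 2 were called higher and 7 lower in 197 tests, with 0.801% to 9.24% of all genes called, and in the other classes 10 higher and 6 lower in 145 tests, with 1.31% to 13.9%.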

How the data were processed

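Nuclei of L3 to L5 DRG were profiled with the Illumina Single Cell 3' RNA Prep, which tags transcripts with UMIs. Per the study's methods and the submitters' processing notes, the authors aligned and counted reads with Pipseeker 3.3.0 against mm10, and they deposited whole-number UMI counts per gene and barcode for each library, unfiltered. All other steps here start from these deposited counts. No column belonged to other samples (0). Library totals were 167664164, 95647106 and 69045987 UMIs over 4880733, 1315480 and 1229208 barcodes, of which 53.8%, 58.4% and 54.5% lay in barcodes with more than 1000 genes, kept as nuclei.

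Nuclei were normalized with SCTransform and integrated by age with RPCA in Seurat 5.3.0 (sctransform 0.4.2), with 30 principal components and a resolution of 0.8. The 10 members and the 33 pathway genes were left out of the clustering. Clusters were named from marker lists, with 3 or more markers each in at least 10% of nuclei and at 25% or more of the highest cluster level. This naming rule was rewritten once the clusters were known. No doublet caller was run, and clusters with markers of several classes (587 nuclei, mixed or unnamed) and neuron clusters with a glial marker sum over 3 times the median were left out of the subtypes. The latter, 1239 nuclei, and 39 unnamed ones remain in the neuron-like sums. Classes with under 20 nuclei in a library (mural and cycling cells) were not tested. The names are rebuilt here and may differ from the study's.

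UMIs were summed per class and library and tested with edgeR 4.0.16 (quasi-likelihood test, TMM factors, filterByExpr), with Benjamini-Hochberg adjustment over all genes of a contrast and a threshold of 0.05, in R 4.3.3, with limma 3.58.1. The steps were checked on simulated counts. Alternatives were DESeq2 1.42.0, its size factors in edgeR, no filter on low sums, more than 2000 genes per nucleus, a resolution of 1.2, a gate that assigns single nuclei from markers (3 for a class, 2 for a subtype), no low-Malat1 nuclei, neuron-like sums of subtyped nuclei alone (added after seeing the data), and leaving out each library. Shares of nuclei with a UMI were also taken after thinning to 1000 UMIs. Python 3.11.15 with numpy 2.4.6, pandas 2.3.3 and scipy 1.17.1 handled tables. Intervals and limits cover counting error only.

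Named genes are the members, the 5 pathway genes with the largest called log2 difference in neuron-like nuclei, and the 5 genes most like each member. The members, the pathway list and the tests were chosen with earlier results of these data known. The comparison of low-Malat1 nuclei, the split by gene span, the marker levels and other groupings beside Htr2b, the co-detection by Malat1 and the rewritten naming rule were added after seeing the data. Ric3, Htr1a, Htr2c, Htr5b, Slc18a2, the markers of the myeloid-like class and the genes overlapping members are named outside the rule, chosen after their values were seen. Promoters come from RefSeq (GRCm38.p6) and gene positions from GENCODE M21 (GRCm38). Of the 10 members, 8 had a promoter entry, and only those of Htr1d and Htr3b are printed.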

Additional observations from a re-analysis of the deposited data

Results flagged for a closer look

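Some nuclei fall outside the comparisons between subtypes or between broad classes. The neuron-like ones among them count only in the neuron-like sums. In these nuclei 8 receptor levels lay above both the free RNA level of the library and the level of 3 UMIs. The lowest level over the libraries with 20 or more such nuclei is given. In neuron-like nuclei left out as mixed, Htr1f stood at 104 CPM or more, Htr4 at 61.7 CPM or more and Htr1d at 14.9 CPM or more. A neuron-like cluster of 39 nuclei that met no subtype name came almost wholly from the adult library, where its 38 nuclei held 102 CPM of Htr4 (30 UMIs), 30.7 CPM of Htr2a (9 UMIs), 20.5 CPM of Htr1d (6 UMIs) and 13.7 CPM of Htr7 (4 UMIs). The 57 mural-like nuclei of the adult library held 26.5 CPM of Htr7, from 4 UMIs. None of these levels was set against another group, since the nuclei are few, mixed or from 1 library. Whether the unnamed nuclei are sensory neurons of the DRG was not tested.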

How the results depend on the processing

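No paired analysis was possible because the labels give no pairing of adult with aged libraries. Direction and side of the threshold held for 80 of 83 recomputed broad-class values and 299 of 312 subtype values over the other settings, and for 28 of 32 and 127 of 141 when 1 library was left out. Member calls between broad classes numbered 11, against 18 with a resolution of 1.2 and 19 with no filter on low sums. Those between subtypes numbered 47, against 30 with the gate on single nuclei, where only 45 tests could be run. The 4 age calls by subtype were 0 with DESeq2. The 0 interaction calls were 4 with no filter on low sums, where the share of all genes called was not taken. Of the age calls in other classes only that of Htr1f in non-myelinating Schwann cell-like nuclei is read. It was lost with DESeq2 and with finer clusters. The tests of Htr2b in myeloid-like nuclei and of Htr2a in non-myelinating Schwann cell-like nuclei are not counted. Both genes passed the filter there through the aged libraries alone. Leaving out each library gave 8 to 13 broad calls, 40 to 46 subtype calls and 14 to 17 low-Malat1 calls (19 with all). The low-Malat1 calls numbered 15 with DESeq2, 17 with no filter and 18 with DESeq2's size factors. In neuron-like sums 3 members near 0 turned their direction with age, none of them called. Htr2b (0.12) went to -0.15 without low-Malat1 nuclei and -0.0230 in subtyped nuclei alone, and ranged from -0.68 to 0.54 when an aged library was left out. Htr3b (0.03) went to -0.0115 with the gate, -0.0220 above 2000 genes and -0.0890 without low-Malat1 nuclei and -0.0212 in subtyped nuclei alone, and ranged from -0.0198 to 0.0668. Htr7 (-0.00185) went to 0.00306 with DESeq2, 0.000761 above 2000 genes, 0.00142 with no filter 0.00292 with DESeq2's size factors and 0.0200 in subtyped nuclei alone, and ranged from -0.0551 to 0.0430. The causes were not tested. DESeq2 gave no adjusted p for 1 member value. Depth limits Htr2b and Htr5a, with 286 and 278 UMIs in all kept nuclei, and 1 adult library limits every age comparison.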

Other observations

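Further genes of the pathway list differed between neuron subtypes. Htr1a, a further Gi/o-coupled receptor, stood at 31.6, 67.1 and 27.6 CPM in NP Sst and at 10.6, 10.8 and 13.7 CPM in PEP C, with log2 differences of 4.66 ± 0.29 and 2.67 ± 0.25 from the other subtypes. The monoamine transporters of vesicles also differed. Slc18a2 was highest in NP Mrgpra3 (8.38, 6.65 and 2.21 CPM, 3.50 ± 0.60), and Slc18a1 in NF (18.3, 17.1 and 21.0 CPM, 2.42 ± 0.21). Slc18a2 was sparse, with 236 UMIs in all kept nuclei. Its value in NP Mrgpra3 of the second aged library lay below the level of 3 UMIs there, 3.31 CPM. Htr5b, with 208 UMIs in all kept nuclei, stood at 3.62, 7.99 and 6.30 CPM in TH (3.12 ± 0.39). Whether it passed the filter on low sums through TH alone was not checked, so this difference is a description.

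Htr2c stood at 7.80, 10.9 and 9.18 CPM in NF (2.38 ± 0.28). In the unnamed cluster of 39 neuron-like nuclei, 34.2% of the 38 adult nuclei held an Htr2c UMI, at 389 CPM from 114 UMIs. Htr2c was among the 10 genes with the largest fold in that cluster, although it was left out of the clustering. The others were Baiap3, Slc12a5, Grm5, Ajap1, Rmst, Grin2a, Grin2b, Camkv and Cpne7. Whether these nuclei are sensory neurons of the DRG was not tested. The cluster has too few nuclei in the aged libraries for a comparison.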
